A study of Homo sapiens with 4 samples.

Results

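Genes of MHC class I assembly and peptide loading were followed through 4 RNA-seq libraries of LX-2 cells. The set holds B2M, HLA-B, HLA-C, HLA-E, TAP1, TAP2, TAPBP, PSMB8 and PSMB9, which are 9 of the 63241 genes in the deposited count table. Each was found by its symbol, and each symbol stood for 1 gene identifier. The set was chosen because B2M moved in opposite directions with TGF-β and with the compounds. Its values for TGF-β against control and for each compound against TGF-β therefore chose the set and are given here as a description. BDS4 against RVX-208 was not used in the choice. Of the 9 genes, 6 reached 1 count per 1000000 scaled counts (CPM) in at least 1 library, and HLA-E, TAP1 and PSMB8 did not.

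LX-2 cells are an immortalised human line from hepatic stellate cells, which deposit scar matrix in the injured liver. The groups were TGF-β with BDS4, TGF-β with RVX-208, TGF-β, and control, with 1 library in each. All cells were first starved for 24 h in medium with 0.5% serum. TGF-β was given at 20 ng/mL and each compound at 5 µM, together, over 24 h. DMSO is named in the label of the TGF-β library and not in that of the control, so the vehicle of the control is not known. RVX-208, also called apabetalone, inhibits BET proteins with a preference for the second of their bromodomains, and BDS4 is a code name in a study of covalent inhibitors of the first. The BDS4 library was matched through its description, since the name of its table column does not contain BDS4. The numbers that the column names carry are not all alike. Their meaning is not stated, and whether the cultures were run side by side is not known. With no second library in any group, no test across replicates was possible. Every interval given below is a 95% conditional exact (Clopper-Pearson) interval and covers counting error only, and PCR copies are counted as separate fragments. A gene is called higher or lower where its ratio was at least 2-fold and 1 lay outside this interval. This rule is one of size.

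MHC class I molecules carry short peptides from proteins made inside the cell to its surface, where CD8+ T cells inspect them. A polymorphic heavy chain, such as HLA-B or HLA-C, pairs with the light chain β2-microglobulin, encoded by B2M, and a heavy chain without it does not reach the surface in a stable form. Peptides are cut by the proteasome, whose catalytic subunits are replaced by PSMB8, PSMB9 and PSMB10 in the immunoproteasome. They are pumped into the endoplasmic reticulum by the TAP1 and TAP2 transporter and loaded onto the heavy chain with the help of tapasin, encoded by TAPBP. Interferon-γ is the best known inducer of most of these genes, through IRF1 and the transactivator NLRC5. Stellate cells have been described as able to present antigen.

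The promoters of these genes are known for elements bound by interferon regulatory factors, by NF-κB and by the NLRC5 enhanceosome. The 250 bases before the RefSeq start site (GRCh38.p14) are shown for the light chain, both heavy chains that passed the filter and TAP2. The 2 heavy chains had the same order of levels across the 4 libraries, and the light chain and TAP2 each had another. Each sequence is written 5′ to 3′ on the strand of the gene. Capitals mark matches to the interferon-response pair (GAAA, any 2 bases, GAAA) and to the NF-κB consensus. B2M lies at chr15:44711267-44711516 on the plus strand, HLA-B at chr6:31357180-31357429, HLA-C at chr6:31272093-31272342 and TAP2 at chr6:32838740-32838989, these 3 on the minus strand.
B2M: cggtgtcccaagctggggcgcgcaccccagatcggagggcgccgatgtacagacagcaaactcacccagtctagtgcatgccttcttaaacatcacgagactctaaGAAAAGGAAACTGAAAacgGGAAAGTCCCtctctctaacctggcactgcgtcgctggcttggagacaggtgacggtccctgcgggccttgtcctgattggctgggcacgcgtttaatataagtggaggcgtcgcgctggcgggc
HLA-B: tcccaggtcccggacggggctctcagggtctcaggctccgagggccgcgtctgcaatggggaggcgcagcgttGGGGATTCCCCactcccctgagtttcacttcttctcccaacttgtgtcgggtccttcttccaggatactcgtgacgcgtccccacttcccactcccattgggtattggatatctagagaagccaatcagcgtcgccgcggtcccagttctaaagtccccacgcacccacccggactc
HLA-C: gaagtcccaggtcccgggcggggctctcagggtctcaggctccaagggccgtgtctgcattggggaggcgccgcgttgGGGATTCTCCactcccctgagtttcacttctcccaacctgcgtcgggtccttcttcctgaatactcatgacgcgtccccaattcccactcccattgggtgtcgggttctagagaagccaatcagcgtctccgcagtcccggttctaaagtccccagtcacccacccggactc
TAP2: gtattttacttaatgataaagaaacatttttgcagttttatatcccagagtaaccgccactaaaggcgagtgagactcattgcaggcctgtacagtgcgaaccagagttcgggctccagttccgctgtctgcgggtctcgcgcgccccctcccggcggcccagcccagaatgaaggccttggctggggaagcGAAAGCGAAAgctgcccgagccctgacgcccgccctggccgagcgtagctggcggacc

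Motifs were searched on both strands in windows from 250 bases before to 50 after the start site, and matches could overlap. The promoter table matched 8 of the 9 genes, with 2 windows each for TAP1 and PSMB8, and no entry for HLA-E. B2M held 2 overlapping interferon-response pairs, which begin at -144 and -138, and an NF-κB match at -125. HLA-B and HLA-C held NF-κB matches, at -177 in HLA-B and at -172 in HLA-C. Neither held the interferon-response pair as spelled here, which does not show that they lack an interferon element. TAP2 held 1 interferon-response pair at -58 and no NF-κB match. Among the others, the first TAP1 window and the TAPBP window each held 2 overlapping pairs and at least 1 NF-κB match. The second PSMB8 window held 1 pair, and the second TAP1 window and the PSMB9 window held neither motif. In all 35116 windows of the table, 3.57% held the interferon-response pair and 11.3% the NF-κB consensus. The CCAAT box, spelled CCAAT, was present in the windows of B2M, HLA-B, HLA-C and PSMB9, in the first TAP1 window and in 34.6% of all windows. The core of the cyclic-AMP response element, TGACG, was present in the windows of B2M, HLA-B, HLA-C, TAP2 and PSMB9. It was also present in the first PSMB8 window and in 24.6% of all windows. These are matches of letters and not measured binding sites, and an element spelled otherwise is missed by the search.

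Total counts ran between 17022369 and 22503094, and 3 counts corresponded to between 0.126 and 0.178 CPM. The share of mitochondrial ribosomal RNA was 0.903% with BDS4 and 0.212% to 0.248% in the other 3 libraries, and its part in the results was not tested. The mesenchymal marker VIM lay between 3290 and 4080 CPM. COL1A1 was at 103 CPM with BDS4, 2935 with RVX-208, 4705 with TGF-β and 2075 in the control, and LRAT, a marker of quiescent stellate cells, was listed at 0 in all 4. Of 10 stellate and mesenchymal markers 8 passed the filter. Of these, 3 were higher with TGF-β than in the control, where 5.32% of all genes were higher. Against TGF-β, 6 were lower with BDS4 and 3 with RVX-208, where 17.7% and 5.25% of all genes were lower. Of 9 leukocyte and antigen-presenting cell markers 3 passed the filter, CD3E, FCGR3A and NKG7 were listed at 0, PTPRC had 4 counts at most, and the summed level was 11.8 to 35.6 CPM. With TGF-β, CD68 was 2.09-fold lower (1.82 to 2.40), CD14 2.17-fold lower (1.62 to 2.93) and LYZ 2.94-fold higher (1.18 to 8.26) than in the control. CD68 shares 81.7% of its exon bases with AC016876.2 on the same strand, and its call was lost when both were summed. CD14 was also 2.13-fold lower with RVX-208 than with TGF-β (1.32 to 3.55), and the part of these markers in the results was not tested. Of 6 hepatocyte markers 1 passed, with APOB, TTR and CYP3A4 at 0 and a summed level of 1.62 to 3.80 CPM. Of 5 endothelial markers 2 passed, with STAB2 at 0 and a summed level of 6.16 to 11.8 CPM, and with BDS4 KDR was 3.52-fold higher (2.65 to 4.73) and VWF 3.69-fold lower (1.93 to 7.64) than with TGF-β. Of 5 epithelial markers 3 passed, KRT7, KRT18 and SOX9. All 3 were lower with BDS4 than with TGF-β, where 17.7% of all genes were lower. Their list summed to 135 CPM with BDS4, 350 with RVX-208, 557 with TGF-β and 287 in the control, and its part in the results on BDS4 was not tested.

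B2M lies on chromosome 15 and the other 8 genes in the MHC on chromosome 6, where many counts in the deposited table are 0. Between HLA-F and TAPBP (chr6:29722775-33314387), 66 of 149 protein-coding genes (44.3%) were listed at 0 in all 4 libraries. The share was 156 of 889 (17.5%) on the rest of chromosome 6. Over the whole genome outside this stretch, with the rest of chromosome 6 included, it was 3368 of 19706 (17.1%). TUBB (a β-tubulin), CLIC1, ABCF1 and PPP1R10, which most cells use, were among the genes at 0, while RPS18 and BRD2 in the same stretch had between 899 and 8482 counts in each library. These genes were picked after their values were seen, and the cause of the zeros was not tested. A value of 0 in this stretch is therefore given as listed at 0 and not as absence of the transcript. The level of a gene counted there may be too low, so libraries are compared within a gene.

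**Figure D1:**
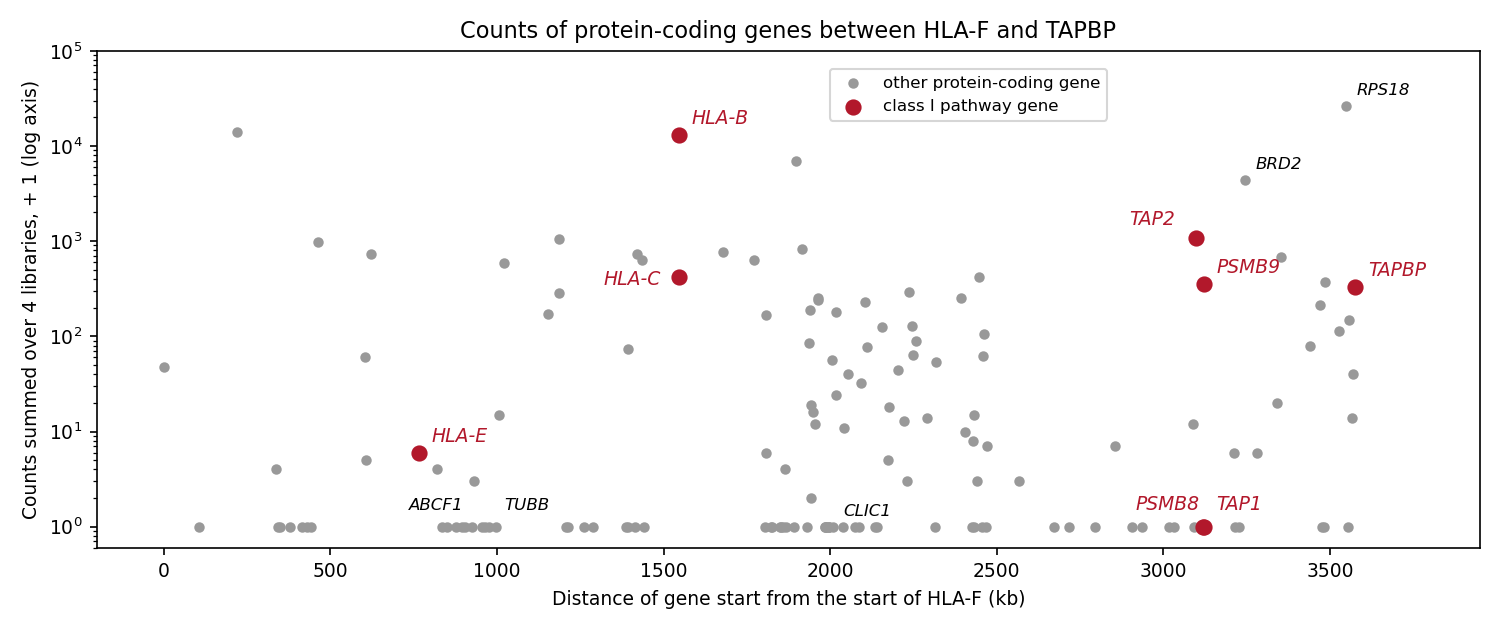
Counts summed over the 4 libraries, plus 1, on a log axis, for each of 149 protein-coding genes against the distance of its start from the start of HLA-F in kb. Red points are the 8 class I pathway genes of this stretch and grey points the other genes; PSMB8 and TAP1 sit at the base line with the other genes that were listed at 0 in all 4 libraries.

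The light chain B2M (ENSG00000166710, chr15:44711487-44718877, plus strand) was lowest with TGF-β alone and highest with BDS4. It had 12515 counts with BDS4, 6252 with RVX-208, 2604 with TGF-β and 6776 in the control, in libraries of unequal depth. Scaled, its level was 613.7 CPM with BDS4 (603.0 to 624.5), 371.4 with RVX-208 (362.2 to 380.7), 117.9 with TGF-β (113.4 to 122.6) and 283.7 in the control (277.0 to 290.6). No 2 of these intervals overlapped, and they cover counting error only. The place of TGF-β in the order BDS4, RVX-208, control, TGF-β was used to choose the set. In bulk RNA, fewer cells that carry a transcript and less of it per cell cannot be told apart.

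B2M was 2.41-fold lower with TGF-β than in the control (2.30 to 2.52). It was 5.20-fold higher with BDS4 than with TGF-β (4.99 to 5.43) and 3.15-fold higher with RVX-208 than with TGF-β (3.01 to 3.30). Both compound levels lay above that of the control, by 2.16-fold with BDS4 (2.10 to 2.23) and by 1.31-fold with RVX-208 (1.26 to 1.35). Between the compounds, at the same dose and time, B2M was 1.65-fold higher with BDS4 than with RVX-208 (1.60 to 1.70), which is under the 2-fold rule. GENCODE 29 lists no other gene that overlaps B2M.

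**Figure D2:**
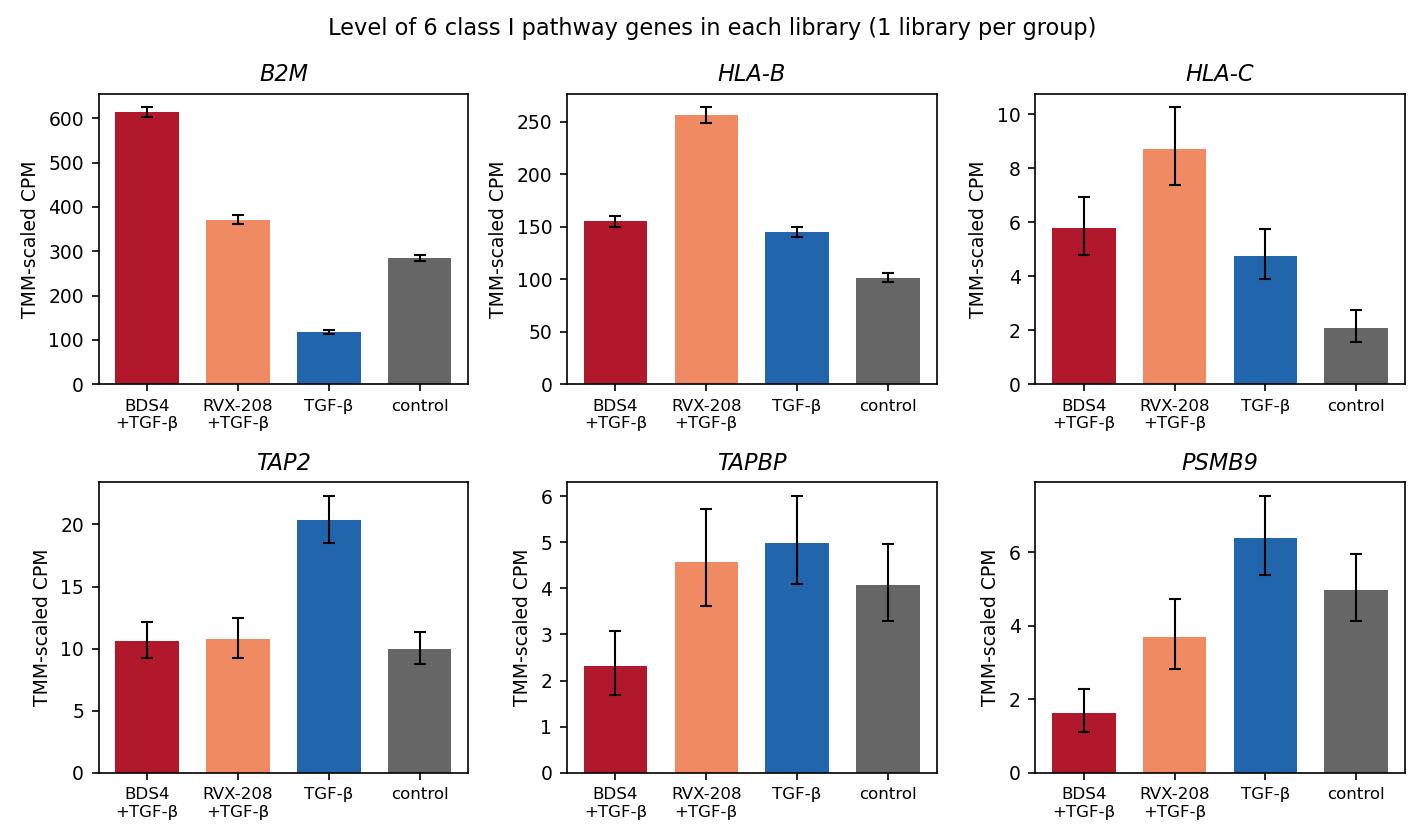
TMM-scaled CPM of the 6 class I pathway genes that passed the filter, in the BDS4, RVX-208, TGF-β and control libraries from left to right, each panel with its own axis from 0. Bars are single libraries and error bars are 95% counting intervals. B2M is lowest with TGF-β (117.9 CPM), HLA-B and HLA-C are highest with RVX-208, and TAP2 is highest with TGF-β (20.3 CPM).

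The heavy chain genes did not follow B2M. HLA-B (ENSG00000234745, chr6:31269491-31357188, minus strand) had 3163 counts with BDS4, 4311 with RVX-208, 3199 with TGF-β and 2427 in the control. Its level was 155.1 CPM with BDS4, 256.1 with RVX-208, 144.9 with TGF-β and 101.6 in the control, so that the RVX-208 library stood above the other 3 and the control below them. HLA-B was 1.43-fold higher with TGF-β than in the control (1.35 to 1.5). Against TGF-β it was 1.07-fold higher with BDS4 (1.02 to 1.12) and 1.77-fold higher with RVX-208 (1.69 to 1.85). It was 1.65-fold lower with BDS4 than with RVX-208, a ratio of 0.606 (0.578 to 0.634). None of these 4 ratios reached 2-fold. With scaling by total counts HLA-B was level between BDS4 and TGF-β, at a log2 ratio of -0.00, so the 1.07-fold difference has no stable direction. Against the control, HLA-B was at 1.53-fold with BDS4 (1.45 to 1.61) and at 2.52-fold with RVX-208 (2.40 to 2.65). The annotated span of HLA-B is 87698 bases and overlaps HLA-C.

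HLA-C (ENSG00000204525, chr6:31268749-31272130, minus strand) had 118 counts with BDS4, 147 with RVX-208, 105 with TGF-β and 50 in the control. Its level was 5.79 CPM with BDS4, 8.73 with RVX-208, 4.76 with TGF-β and 2.09 in the control, the same order as for HLA-B. HLA-C was 2.27-fold higher with TGF-β than in the control (1.61 to 3.25), which passed the rule. HLA-C and HLA-B share 35 exon bases on 1 strand in GENCODE 29. HLA-C was 1.22-fold higher with BDS4 than with TGF-β (0.927 to 1.60), an interval that includes no difference, and 1.84-fold higher with RVX-208 than with TGF-β (1.42 to 2.38). With BDS4 it was at 0.663 of its RVX-208 level (0.516 to 0.850). Against the control, HLA-C was at 2.76-fold with BDS4 (1.97 to 3.93) and at 4.17-fold with RVX-208 (3.01 to 5.87). The class I heavy chain genes are similar in sequence, so the division of reads among HLA-B, HLA-C and related genes is uncertain. HLA-E (ENSG00000204592, chr6:30489467-30494205, plus strand), the heavy chain of the ligand of the natural killer receptor CD94-NKG2A, had 2 counts with BDS4, 0 with RVX-208, 0 with TGF-β and 3 in the control, and gave no ratio.

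Of 6 other class I and class I-like chains 3 passed the filter (MR1, HFE and FCGRT), HLA-G was listed at 0, and none was called in any of the 4 comparisons. The quotient of HLA-B to B2M counts differed between the libraries. It is not corrected for gene length, and HLA-B counts may be too low or shared with similar genes. Its size therefore does not give the balance of the transcripts. There were 0.253 HLA-B counts for each B2M count with BDS4 (0.243 to 0.263), 0.690 with RVX-208 (0.663 to 0.717), 1.23 with TGF-β (1.17 to 1.29) and 0.358 in the control (0.342 to 0.375). This quotient was highest with TGF-β and lowest with BDS4, and no interval of 1 library overlapped that of another. For HLA-C it was 0.00943 with BDS4 (0.00780 to 0.0113), 0.0235 with RVX-208 (0.0198 to 0.0277), 0.0403 with TGF-β (0.0329 to 0.0490) and 0.00738 in the control (0.00547 to 0.00974). It was again highest with TGF-β, while the intervals of BDS4 and the control overlapped. The quotient contains B2M, whose direction was used to choose the set.

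The transporter subunit TAP2 (ENSG00000204267, chr6:32821833-32838780, minus strand) had 217 counts with BDS4, 181 with RVX-208, 449 with TGF-β and 238 in the control. Its level was 10.6 CPM with BDS4, 10.8 with RVX-208, 20.3 with TGF-β and 9.97 in the control. The TGF-β library thus stood apart and the other 3 lay together. TAP2 was 2.04-fold higher with TGF-β than in the control (1.74 to 2.40). That call was lost with scaling by total counts, where the log2 ratio was 0.96. With BDS4 it was at 0.523 of the TGF-β level (0.443 to 0.617) and with RVX-208 at 0.529 (0.442 to 0.630), both short of the 2-fold rule. With scaling by total counts the log2 ratio of BDS4 against TGF-β was -1.03 and passed. The ratio of BDS4 to RVX-208 was 0.990 (0.809 to 1.21). TAP2 shares 32.3% of its exon bases with AL669918.1 on the same strand, which had no counts. TAP1 (ENSG00000168394, chr6:32845209-32853978, minus strand), the other subunit of the transporter, was listed at 0 in all 4 libraries.

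TAPBP (ENSG00000231925, chr6:33299694-33314387, minus strand), which encodes tapasin, had 47 counts with BDS4, 77 with RVX-208, 110 with TGF-β and 97 in the control. Its level was 2.30 CPM with BDS4, 4.57 with RVX-208, 4.98 with TGF-β and 4.06 in the control. The BDS4 library was the low one. TAPBP was 2.16-fold lower with BDS4 than with TGF-β (1.52 to 3.11). Against RVX-208 it was at 0.504 with BDS4 (0.343 to 0.734), just short of the rule. Its ratios of 1.23 for TGF-β against control (0.925 to 1.63) and 0.918 for RVX-208 against TGF-β (0.677 to 1.24) both had intervals that include 1.

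PSMB9 (ENSG00000240065, chr6:32844136-32859585, plus strand), a catalytic subunit of the immunoproteasome, had 33 counts with BDS4, 62 with RVX-208, 141 with TGF-β and 119 in the control. Its level was 1.62 CPM with BDS4, 3.68 with RVX-208, 6.39 with TGF-β and 4.98 in the control, so the BDS4 library was the lowest. With RVX-208 its ratio to the control was 0.739 (0.535 to 1.01), an interval that includes 1. PSMB9 was 3.95-fold lower with BDS4 than with TGF-β (2.69 to 5.95). With RVX-208 it was 1.73-fold lower than with TGF-β (1.28 to 2.38), under the rule. It was 2.28-fold lower with BDS4 than with RVX-208 (1.47 to 3.59), the one gene of the set past the rule between the compounds. The ratio of TGF-β to control was 1.28 (0.997 to 1.65). PSMB9 shares 139 exon bases with PSMB8 on the opposite strand and 174 with PSMB8-AS1 on its own, which is 4.52% and 5.66% of its exon bases. No source used here states the strand setting of the counting, so reads within these shared bases cannot be told apart. Neither PSMB8 nor PSMB8-AS1 had more than 2 counts in any library. PSMB8 (ENSG00000204264, chr6:32840717-32844703, minus strand), the companion catalytic subunit, was listed at 0 in all 4 libraries.

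**Figure D3:**
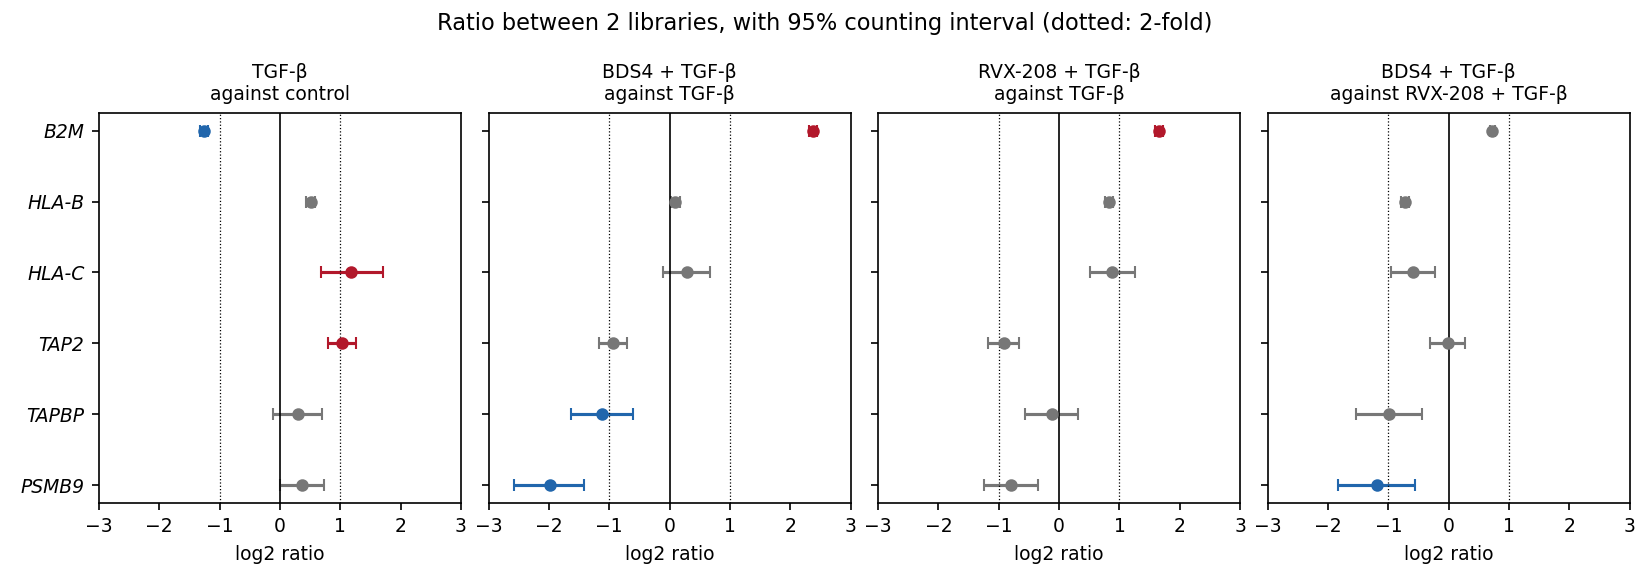
Log2 ratio between 2 libraries for the 6 genes that passed the filter, in 4 panels, with each title naming the libraries compared. Bars are 95% counting intervals, dotted lines mark 2-fold, and red or blue points passed the 2-fold rule as higher or lower. B2M is on the lower side with TGF-β and on the higher side with both compounds, while PSMB9 is lower with BDS4 in both of its panels.

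Counted over the 6 genes past the filter, TGF-β against control gave 2 genes higher (HLA-C and TAP2), 1 lower (B2M) and 3 neither. Of all 16099 genes tested, 5.32% were higher and 4.37% lower in that comparison. BDS4 against TGF-β gave 1 gene higher (B2M), 2 lower (TAPBP and PSMB9) and 3 neither, where 14.5% of all genes were higher and 17.7% lower. RVX-208 against TGF-β gave 1 gene higher (B2M), 0 lower and 5 neither, where 2.94% were higher and 5.25% lower. The median log2 ratio of the 6 genes was 0.43 for TGF-β against control, -0.42 for BDS4 against TGF-β and 0.35 for RVX-208 against TGF-β, while the median over all genes lay between -0.01 and 0.00 in each. Both compound comparisons use the TGF-β library, as does TGF-β against control, so they are not independent of each other, and nothing is read from the counts because these contrasts chose the set.

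BDS4 against RVX-208, both at 5 µM for 24 h, gave 0 genes higher, 1 lower (PSMB9) and 5 neither, where 11.7% of all genes were higher and 13.1% lower. That 1 of 6 is near the background. The median log2 ratio was -0.65 over the 6 genes and -0.01 over all genes. The ratios of the 5 genes that were not called were 1.65 for B2M, 0.606 for HLA-B, 0.663 for HLA-C, 0.990 for TAP2 and 0.504 for TAPBP. The interval for TAP2 reached from 0.809 to 1.21, so a difference of up to about that size was not detectable at this depth.

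Other genes of the pathway were grouped in lists by function. Among 10 genes of loading and trimming in the endoplasmic reticulum, 10 passed the filter, and 3 were lower and 0 higher with BDS4 than with TGF-β, where 17.7% of all genes were lower and 14.5% higher. The 3 were the aminopeptidases ERAP1 and ERAP2, which trim peptides to length, and TAPBPL, a tapasin-related peptide editor. ERAP1 had 27.6 CPM with BDS4, 43.7 with RVX-208, 66.6 with TGF-β and 36.9 in the control, and was 2.41-fold lower with BDS4 than with TGF-β (2.19 to 2.66). ERAP2 had 11.9 CPM with BDS4, 28.7 with RVX-208, 50.6 with TGF-β and 27.6 in the control, and was 4.25-fold lower with BDS4 (3.70 to 4.90). TAPBPL had 1.37 CPM with BDS4, 4.22 with RVX-208, 9.56 with TGF-β and 5.53 in the control, and was 6.96-fold lower with BDS4 (4.68 to 10.7). All 3 had their highest level with TGF-β and their lowest with BDS4, as did PSMB9. With RVX-208, TAPBPL alone of the list passed, 2.27-fold lower than with TGF-β (1.72 to 3.01), where 5.25% of all genes were lower. In BDS4 against RVX-208, TAPBPL and ERAP2 were lower, where 13.1% of all genes were lower. The chaperones of the loading complex stayed under 2-fold, among them calreticulin (CALR), with 795 CPM with BDS4, 929 with RVX-208, 754 with TGF-β and 894 in the control. The list's median log2 ratio was 0.21 for BDS4 against TGF-β, 0.17 for RVX-208 against TGF-β and 0.14 for TGF-β against control, where 0 of 10 genes passed.

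Of the 4 other immunoproteasome and activator genes, 1 was lower and 0 higher with BDS4 than with TGF-β, a share near the 17.7% of all genes that were lower. It was PSMB10, the third inducible catalytic subunit, with 5.10 CPM with BDS4, 12.7 with RVX-208, 25.1 with TGF-β and 15.9 in the control. PSMB10 was 4.92-fold lower with BDS4 than with TGF-β (3.98 to 6.13) and 2.48-fold lower with BDS4 than with RVX-208 (1.95 to 3.17), and at 1.98-fold lower with RVX-208 than with TGF-β (1.69 to 2.33) it fell just short of the rule. PSMB10 shares 34.8% of its exon bases with AC040162.1, and these calls held for the sum of both. The assembly chaperone POMP was not called, at 380 CPM with BDS4, 300 with RVX-208, 201 with TGF-β and 303 in the control. Of 14 subunits of the standard 20S proteasome 13 passed the filter, and only PSMB6 was called. It was 2.69-fold lower with BDS4 than with TGF-β (2.50 to 2.89), where 17.7% of all genes were lower. PSMB6 is the constitutive subunit that PSMB9 replaces, and the constitutive partners of PSMB8 and PSMB10 were not called, with ratios of BDS4 to TGF-β of 0.800 for PSMB5 (0.747 to 0.857) and 0.687 for PSMB7 (0.646 to 0.731).

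Among 13 transcription factors and cofactors of class I genes, 4 were lower and 0 higher with BDS4 than with TGF-β, beside 17.7% lower and 14.5% higher among all genes. None of the 13 was called with RVX-208 against TGF-β or with TGF-β against control. NLRC5, the class I transactivator, had 13.4 CPM with BDS4, 37.4 with RVX-208, 45.5 with TGF-β and 43.5 in the control, and was 3.40-fold lower with BDS4 than with TGF-β (2.97 to 3.9). The others were NFKB1, 2.63-fold lower (2.40 to 2.88), IRF2, 2.99-fold lower (2.34 to 3.85), and ATF1, 2.01-fold lower (1.79 to 2.26). NLRC5, NFKB1 and IRF2 were also lower with BDS4 than with RVX-208, where 13.1% of all genes were lower. IRF1, whose product binds the interferon-response element, had 43.2 CPM with BDS4, 55.5 with RVX-208, 77.2 with TGF-β and 42.0 in the control. It stayed under 2-fold in each comparison. Of the 13 genes, CREB1 was the one that, like B2M, was lowest with TGF-β and highest with BDS4, at 24.9 CPM with BDS4, 19.9 with RVX-208, 17.5 with TGF-β and 21.5 in the control, and it was not called.

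Among 12 interferon receptor and signalling genes, 1 was higher and 3 were lower with BDS4 than with TGF-β, near the 14.5% higher and 17.7% lower among all genes. SOCS1, a feedback inhibitor of this signalling, had 8.68 CPM with BDS4, 2.20 with RVX-208, 2.45 with TGF-β and 2.93 in the control, and was 3.55-fold higher with BDS4 than with TGF-β (2.60 to 4.91). IFNGR2, a chain of the interferon-γ receptor, was 4.98-fold lower (3.84 to 6.56) and USP18 was 4.14-fold lower (2.99 to 5.83). IRF9 was 2.24-fold lower (1.89 to 2.67), a call that was lost when its counts were summed with those of AL136295.5, which shares its exons. In TGF-β against control and in RVX-208 against TGF-β none of the 12 genes was called. Interferon-γ itself (IFNG) had 3 counts with BDS4 and 0 in the other 3 libraries.

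**Figure D4:**
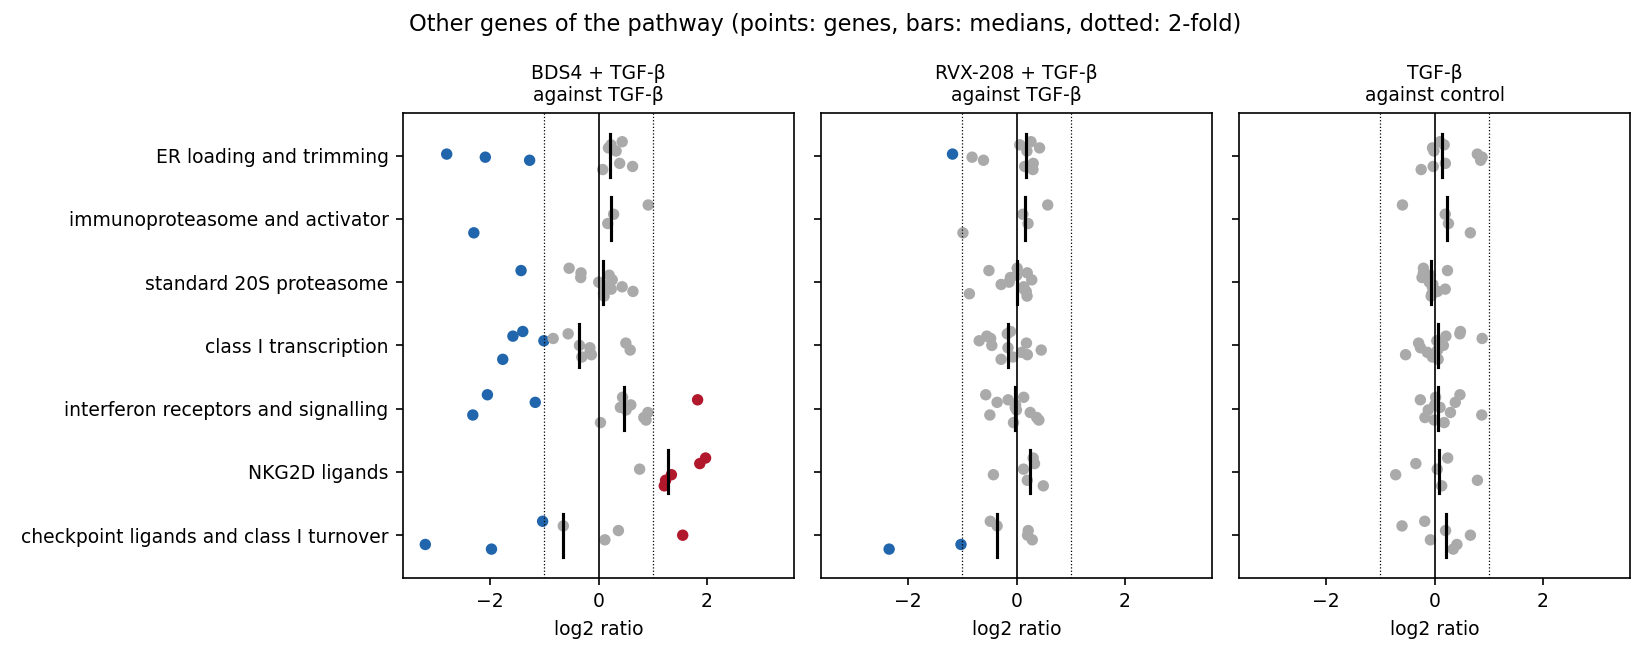
Log2 ratios of the genes of 7 functional lists that passed the filter, for BDS4 against TGF-β, RVX-208 against TGF-β and TGF-β against control from left to right. Points are genes, short black bars are list medians, dotted lines mark 2-fold, and red or blue points passed the rule as higher or lower. In the BDS4 panel 5 of 6 points of the NKG2D ligands lie right of the 2-fold line, and in the TGF-β panel no point lies past a 2-fold line.

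Genes whose pattern was most like that of B2M were ranked by the distance between their 3 log2 ratios to the control, over 4 libraries and 10378 protein-coding genes. The first 5 were CDKN2AIP at a distance of 0.26, STX6 at 0.31, SSH2 at 0.37, TERF2IP at 0.37 and GCH1 at 0.44. CDKN2AIP, a regulator of the p53 pathway, had 32.8 CPM with BDS4, 16.2 with RVX-208, 6.25 with TGF-β and 14.7 in the control. TERF2IP, a subunit of the telomere-binding shelterin complex, had 175.8 CPM with BDS4, 92.2 with RVX-208, 40.9 with TGF-β and 77.8 in the control. GCH1, the first enzyme of tetrahydrobiopterin synthesis, had 64.4 CPM with BDS4, 41.8 with RVX-208, 18.5 with TGF-β and 34.7 in the control. STX6 shares exons with AL162431.2, so its counts may hold reads of both. The other genes of the set were left out of this ranking, so it cannot show whether any of them resembled B2M. The ranking also had a floor of 10 CPM, which some genes of the lists, such as TAPBPL, did not reach in any library. Of the genes of the loading, proteasome and interferon lists that were ranked, none was among these 5. Of 703 genes lower with TGF-β than in the control, 101 were higher with both compounds than with TGF-β, as B2M was, in comparisons that share the TGF-β library.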

How the data were processed

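RNA from 4 LX-2 cultures was sequenced as stranded, paired-end mRNA libraries, per the series' design text, with 1 library per group. Base calling with CASAVA 1.8 and alignment to GRCh38 with TopHat2 2.0.6 are stated in the submitters' processing notes. The deposited counts are whole numbers per gene, and the authors' deposited FPKM values were made with StringTie 1.3.0, per the series' design text. No source used here states the counting program, the annotation release or the strand setting. Counts were scaled by TMM factors of 0.943 (BDS4), 0.989 (RVX-208), 1.01 (TGF-β) and 1.06 (control) with edgeR 4.0.16 in R 4.3.3. The filter kept the 16099 genes that reached 1 CPM in any library. Ratios, exact intervals and log2 medians (prior count 2) came from scipy 1.17.1, pandas 2.3.3 and numpy 2.4.6 under Python 3.11.15. Figures were drawn with matplotlib 3.10.9. The interval and the 2-fold rule were run on simulated counts that held counting error only, so variation between cultures was not tested.

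Exons and overlaps came from GENCODE 29, which may differ from the annotation used for counting, and promoter sequences from RefSeq (GRCh38.p14). The genes, the 10 pathway lists and the 5 marker lists were chosen with earlier results of these data known. Some genes of these lists are not reported here. From each list, genes past the 2-fold rule with at least 5 CPM in the higher library were named, up to 4 per list and comparison, with others given for context. Alternatives were total-count scaling, DESeq2 1.42.0 size factors, the deposited FPKM, a 1.5-fold rule, other filters and prior counts, sums over gene identifiers and, chosen after seeing the data, sums with genes that share exons on the same strand.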

Additional observations from a re-analysis of the deposited data

How the results depend on the processing

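Of 120 values (6 genes, 4 comparisons and 5 alternative ways of counting or scaling), 113 kept their side of the 2-fold rule. The other 7 changed it, and no called value reversed. These ways are not 5 separate checks. The sum over gene identifiers could change nothing, since each symbol stood for 1 gene identifier. The deposited FPKM repeated total-count scaling almost exactly, and the exon-sharing sums moved only HLA-B, HLA-C and PSMB9. The log2 ratio of HLA-B for BDS4 against TGF-β, not called, was 0.10 and became -0.00 under total-count scaling and with the deposited FPKM. B2M kept its calls under total-count scaling, DESeq2 size factors and the deposited FPKM, and the sums could not change its counts. The 2 genes called higher with TGF-β than in the control became 1 under total-count scaling and 1 with the deposited FPKM (TAP2 lost), and 1 when exon-sharing genes were summed (HLA-C lost, as its sum with HLA-B is mostly HLA-B counts). For BDS4 against RVX-208, 2 genes in place of 1 were lower under total-count scaling and 2 with the deposited FPKM, where TAPBP joined PSMB9 at a log2 ratio of -1.06. With a 1.5-fold rule, RVX-208 against TGF-β gave 3 higher and 2 lower, and BDS4 against RVX-208 gave 1 higher and 4 lower. The mean log2 ratio over the 6 genes for BDS4 against TGF-β was -0.20 beside the median of -0.42. Of all genes, 32.2% were called in either direction for BDS4 against TGF-β, 24.8% for BDS4 against RVX-208 and 8.19% for RVX-208 against TGF-β. These shares became 20.8% and 15.4% with no filter for the 2 comparisons of BDS4, and 5.22% at a minimum of 5 CPM for RVX-208. No paired analysis was possible because each group had 1 library, and for the same reason no library could be left out. TAPBP, PSMB9 and HLA-C had between 33 and 147 counts per library, which sets the width of their intervals.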

Other observations

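Ligands of NKG2D, the activating receptor of natural killer cells and CD8+ T cells, are class I-like surface proteins that do not bind B2M. Of 8 such genes 6 passed the filter, and 5 were higher and 0 lower with BDS4 than with TGF-β, where 14.5% of all genes were higher and 17.7% lower. Their median log2 ratio was 1.28, beside -0.01 over all genes. ULBP3 had 65.1 CPM with BDS4, 22.5 with RVX-208, 17.8 with TGF-β and 22.7 in the control, and was 3.65-fold higher with BDS4 than with TGF-β (3.26 to 4.09). RAET1G was 3.93-fold higher (3.00 to 5.20), ULBP1 2.54-fold (2.17 to 2.98), MICB 2.36-fold (1.92 to 2.91) and MICA 2.32-fold (1.90 to 2.84). MICA and MICB lie in the stretch of chromosome 6 where many genes were listed at 0. With RVX-208 against TGF-β none of the 6 was called. In BDS4 against RVX-208, 4 of 6 were higher and 0 lower, where 11.7% of all genes were higher and 13.1% lower.

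In a list of 7 checkpoint ligands and genes of class I turnover, 1 was higher and 3 lower with BDS4 than with TGF-β, where 14.5% of all genes were higher and 17.7% lower. With RVX-208 against TGF-β, 0 were higher and 2 lower, where 2.94% of all genes were higher and 5.25% lower, and none was called with TGF-β against control. CD274, which encodes PD-L1, had 7.01 CPM with BDS4, 5.41 with RVX-208, 27.5 with TGF-β and 21.7 in the control. It was 3.93-fold lower with BDS4 (3.27 to 4.75) and 5.09-fold lower with RVX-208 (4.08 to 6.42) than with TGF-β, and the ratio of BDS4 to RVX-208 was 1.30 (0.990 to 1.71). PDCD1LG2, which encodes PD-L2, was 9.15-fold lower with BDS4 (5.83 to 15.1) and 2.03-fold lower with RVX-208 (1.56 to 2.67) than with TGF-β. CD47, the ligand of SIRPα, was not called, at ratios to TGF-β of 1.09 with BDS4 (1.01 to 1.17) and 1.22 with RVX-208 (1.13 to 1.32). SUSD6, described as part of a complex that lowers surface class I, had 284 CPM with BDS4, 112 with RVX-208, 96.9 with TGF-β and 61.3 in the control, and was 2.93-fold higher with BDS4 than with TGF-β (2.79 to 3.08). MARCHF9, a ubiquitin ligase of the MARCH family, was 2.04-fold lower with BDS4 than with TGF-β (1.79 to 2.33).

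Of 12 class II genes 3 passed the filter, and HLA-DRA, HLA-DQA1, HLA-DQB1 and HLA-DMA were listed at 0 in all 4 libraries. CD74, the invariant chain, was 3.74-fold lower with RVX-208 than with TGF-β (1.87 to 8.27), where 5.25% of all genes were lower. It was 5.28-fold higher with BDS4 than with RVX-208 (2.69 to 11.5), where 11.7% of all genes were higher. CD74 had at most 3.14 CPM in any library. CIITA, at most 1.21 CPM, was 2.68-fold lower with TGF-β than in the control (1.27 to 6.17), where 4.37% of all genes were lower. Of 7 interferon ligand genes 3 passed, and 2 of them, IFNB1 and IFNL1, were lower with BDS4 than with TGF-β. Their levels were at most 1.86 CPM, and 17.7% of all genes were lower in that comparison. Both were also lower with BDS4 than with RVX-208, where 13.1% of all genes were lower. IFNL1 was 2.33-fold higher with TGF-β than in the control (1.32 to 4.26), where 5.32% of all genes were higher. The remaining ligand gene, IFNE, had 5.59 CPM with BDS4, 10.2 with RVX-208, 4.39 with TGF-β and 2.47 in the control. IFNE was 2.33-fold higher with RVX-208 than with TGF-β (1.8 to 3.01), where 2.94% of all genes were higher.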
